A study of Mus musculus with 5 samples.

Results

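Zfp990, Zfp987 and Zfp979 are 3 zinc finger genes of a cluster on the distal part of mouse chromosome 4, and 8 of the 726 NFATC2 (NFAT1) peaks in 4 peak lists were annotated to them. A peak was counted as theirs when the authors' annotation gave 1 of the 3 gene symbols. The genes had been selected on recurrence, because peaks annotated to them appear in 2 or more lists, so that recurrence is described here and not tested. Of the 8 peaks, 1 was listed in wild-type replicate 1, 4 in wild-type replicate 2, 1 in Mfn2-/- replicate 1 and 2 in Mfn2-/- replicate 2. Zfp990 had 2 peaks, Zfp987 had 3 and Zfp979 had 3. Each gene had 1 region in which the peaks of 2 libraries overlapped, and the 3 regions fell into 3 different classes. The Zfp990 region was listed in both wild-type libraries, the Zfp979 region in both Mfn2-/- libraries, and the Zfp987 region in 1 library of each genotype.

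The libraries came from ChIP-seq, which sequences the DNA fragments that an antibody, here one to NFAT1, pulls down with its protein. The chromatin was from regenerating Dendra2+ myofibers of the tibialis anterior (TA) muscle at 14 days post injury (dpi), with 2 libraries from wild-type and 2 from Mfn2-/- mice. Mice of both groups carried Pax7-Cre(ERT2), a Cre that tamoxifen switches on in muscle stem cells, and the mito-Dendra2 allele, which marks cells in which Cre acted. The Mfn2-/- mice also had a floxed Mfn2 allele, so that the deletion was made in stem cells and reached myofibers formed from them. Tamoxifen (75 mg/kg daily for 5 days) was given to both groups, and 2 days later the muscle was injured with 50 μL of 1.2% BaCl2. The labels give neither the ages of the mice nor whether the 2 replicates of a genotype came from separate mice, so the spread between them may be technical. An input library from wild-type myofibers was not analysed here. Peak lists hold no transcript levels, so neither the tissue label nor the loss of Mfn2 could be checked in them.

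NFATC2 is a transcription factor that calcium signaling, through the phosphatase calcineurin, moves into the nucleus, where it binds DNA with the core letters GGAAA. The protein-coding genes of the chromosome 4 cluster are described as encoding KRAB zinc finger proteins, which was not checked here. Such proteins read DNA with a row of zinc fingers and recruit the corepressor TRIM28, which brings H3K9me3 and silences transposons and other repeats. They arise by repeated gene duplication, so neighbors in a cluster are often near copies. Zfp979 is also known as Ssm1b, a strain-specific modifier of DNA methylation. Reads from near copies can be placed at the wrong copy, so the gene to which a peak of such a cluster was annotated is uncertain.

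The sequences upstream of Zfp979 and Zfp987 are shown because they display how alike members of the cluster are. Both are the 250 bases before the RefSeq start of the gene, in the direction of the gene, and capitals mark the longest run that they share without a mismatch, of 24 bases. The Zfp979 sequence lies at chr4:147642509-147642758 on the minus strand and the Zfp987 sequence at chr4:146097062-146097311 on the plus strand (RefSeq, GRCm38.p6).
Zfp979: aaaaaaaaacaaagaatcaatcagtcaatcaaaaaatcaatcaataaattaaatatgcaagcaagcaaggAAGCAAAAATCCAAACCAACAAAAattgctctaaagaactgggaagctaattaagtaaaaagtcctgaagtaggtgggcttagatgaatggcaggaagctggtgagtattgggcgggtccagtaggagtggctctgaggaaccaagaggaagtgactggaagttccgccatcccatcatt
Zfp987: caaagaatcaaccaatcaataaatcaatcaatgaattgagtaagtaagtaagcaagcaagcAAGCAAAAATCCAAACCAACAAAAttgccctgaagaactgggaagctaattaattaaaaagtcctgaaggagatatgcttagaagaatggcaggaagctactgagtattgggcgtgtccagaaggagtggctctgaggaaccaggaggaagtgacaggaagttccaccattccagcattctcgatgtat
In a global alignment, 80.7% of the aligned columns were identical between them. Across 77 other pairs of upstream sequences of zinc finger genes in the cluster, identity ranged from 42.0% to 99.2% with a median of 69.5%. Against genes with other names in the same part of the chromosome, Zfp979 and Zfp987 had a median identity of 46.9% over 108 pairs. There every upstream sequence was kept, so the medians were made by unlike rules. The upstream sequences closest to that of Zfp979 were those of Rex2 and Zfp600, which tied at 94.1%, and the one closest to Zfp987 was from Zfp982, at 87.4%. The letters GGAAA, searched on both strands, occurred 0 times in either sequence. They were in 5 of the 16 upstream sequences of zinc finger genes in the cluster (31.2%) and in 55.6% of all 32851 RefSeq upstream sequences of this length, so most sequences of the cluster lacked them too. No listed peak of either gene reached these sequences. The peaks of Zfp987 lay 12.7 kb to 27.6 kb from the RefSeq start, and those of Zfp979 lay 25.1 kb to 40.5 kb from it.

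Each peak carries a score made from the p-value of the peak caller MACS (10 times −log10), so that a p-value of 1e-05 becomes a score of 50. A deeper library gives higher scores at the same enrichment, and depth is unknown because the lists hold no read counts. From 127 to 226 peaks were listed per library, and median scores ran from 54.1 to 57.0, close to 50. In 3 of the 4 lists the highest peak was annotated to Hif1a, with scores up to 1494, and in wild-type replicate 2 it was annotated to Gm10801.

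The peak of Zfp990 (ENSMUSG00000078503) was in intron 2 of 3 and was listed only in the wild-type libraries. In wild-type replicate 1 it spanned chr4:145532327-145533762, or 1436 bp, with a score of 52.45. In wild-type replicate 2 it spanned chr4:145532023-145533004, or 982 bp, with a score of 75.42. The peaks shared 678 bp, which was 47.2% of the replicate 1 peak and 69.0% of the replicate 2 peak. By score the peak ranked 144 of 226 in replicate 1 and 15 of 212 in replicate 2, so it was among the weaker peaks of one list and among the stronger of the other. Of all 680 regions, 0.588%, or 4 regions, were listed in the wild-type pair alone, and since recurrence in these lists chose the gene nothing is read from this.

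Zfp987 (ENSMUSG00000066009) had a region at the 3' end of the gene that was listed in 1 library of each genotype. In wild-type replicate 2 the peak spanned chr4:146124840-146125865, or 1026 bp, with a score of 55.86. In Mfn2-/- replicate 2 it spanned chr4:146124945-146125906, or 962 bp, with a score of 68.85. These peaks were the best matched of the 3 regions, with starts 105 bp and ends 41 bp apart and a shared stretch of 921 bp. That stretch was 89.8% of the wild-type peak and 95.7% of the Mfn2-/- peak. Although they covered nearly the same bases, the authors' annotation placed the wild-type peak in exon 4 of 4 and the Mfn2-/- peak in the 3' UTR. The peaks ended 0.759 kb and 0.718 kb before the end of the gene in RefSeq, so both were in its last part. Ranks were 93 of 212 in wild-type replicate 2 and 24 of 161 in Mfn2-/- replicate 2. Of all regions, 1.32% were of this class, with 1 library of each genotype, and nothing is read from this either. A further Zfp987 peak, in intron 2 of 3, was listed only in wild-type replicate 2 at chr4:146110061-146110539, with a score of 52.59. It was 14.3 kb from the region at the 3' end and, at 479 bp, was the narrowest of the 8 peaks.

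Zfp979 (ENSMUSG00000066000) had peaks in 3 libraries, in 2 places that did not overlap. In both Mfn2-/- libraries the peak was classed as distal intergenic and lay beyond the 3' end of the gene, which is read from the minus strand. In Mfn2-/- replicate 1 it spanned chr4:147601670-147602722, or 1053 bp, with a score of 51.66. In Mfn2-/- replicate 2 it spanned chr4:147599513-147602043, or 2531 bp, with a score of 112.47. The score in replicate 2 was the highest of the 8 peaks and that in replicate 1 the lowest, with ranks of 12 of 161 and 111 of 127. They shared 374 bp, which was 35.5% of the replicate 1 peak and 14.8% of the replicate 2 peak, with starts 2157 bp apart. The overlap was thus at an edge of both peaks. The peaks ended 9.21 kb and 9.89 kb from the gene. Of all regions, 1.47%, or 10 regions, were listed in the Mfn2-/- pair alone, from which again nothing is read. In wild-type replicate 2 the Zfp979 peak was instead inside the gene, in intron 3 of 4, at chr4:147616234-147617370, with a width of 1137 bp, a score of 88.54 and a rank of 12 of 212. It began 13.5 kb from the end of the intergenic region of the Mfn2-/- libraries. A comparison by gene symbol alone would therefore pair peaks of the 2 genotypes that did not overlap.

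**Figure D1:**
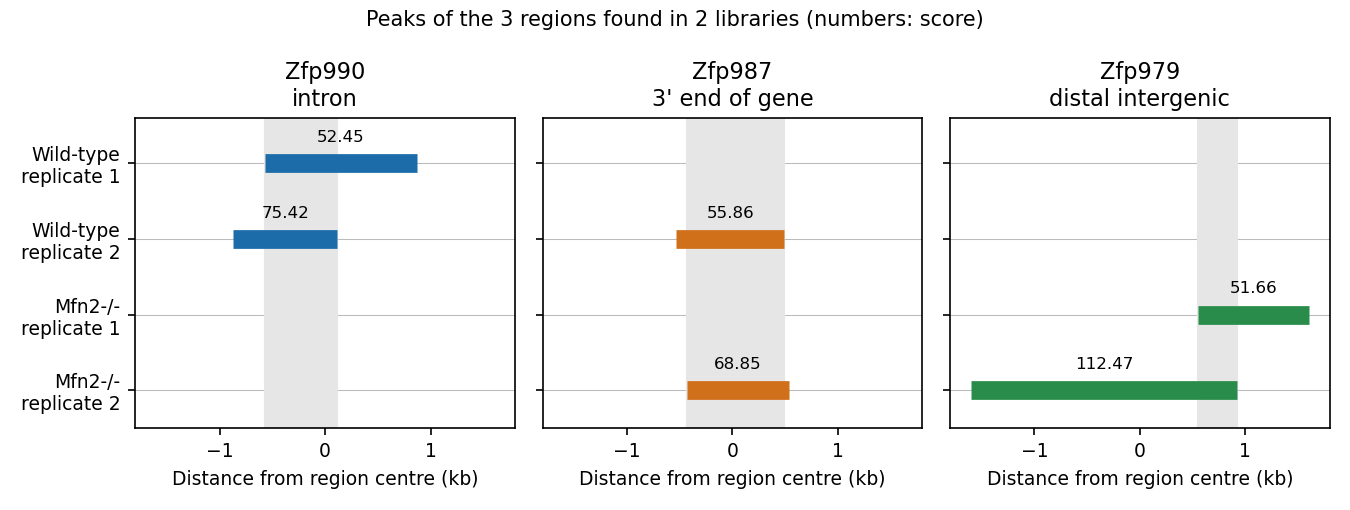
Peaks of the 3 regions listed in 2 libraries, by distance from the centre of the region in kb, with a row for each library and the score above each bar. Gray marks the bases shared by the peaks, 678 bp at Zfp990, 921 bp at Zfp987 and 374 bp at Zfp979.

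Over all libraries, the 8 peaks fell into 5 regions, with 3 regions listed in 2 libraries and 0 in more. Of these 3, only 1, at Zfp987, remained when shared bases had to make up at least 50% of both peaks. The same 1 remained with only peaks scoring at or above 54.71. Of all 680 regions, 4.56% had a peak in 2 or more libraries. Counted by gene symbol and not by overlap, 10.2% of the 618 genes in the lists, or 63 genes, had a peak in 2 or more lists. The 3 genes were picked on that count by symbol, in the same lists, so nothing is read from either difference.

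Listed peaks around the 3 genes were counted in a window, chr4:144532023-148617370, which runs 1 Mb past the outermost of the 8 peaks on both sides and covers 4.09 Mb. It held 17 listed peaks, out of 63 on chromosome 4, which spanned 151.6 Mb. Of the 17 peaks, 8 belonged to the 3 genes, 6 to other zinc finger genes and 3 to genes with other names. The window was drawn around those 8 peaks, so nothing is read from its count. RefSeq places 18 genes with a zinc finger gene symbol in this window, of which 12 had no listed peak and 6 had a peak in 2 or more lists. Beside Zfp990, Zfp987 and Zfp979, these 6 genes were Zfp982, Zfp985 and Zfp984. Among all 618 genes in the lists, 10.2% had a peak in 2 or more. Recurrence had picked 3 of the 6 genes, so nothing is read from this difference. The 3 genes with other names had a peak in 1 library each. The peaks of Zfp982, in wild-type replicate 1 and Mfn2-/- replicate 1, overlapped and were classed as promoter peaks, with scores of 54.96 and 95.60. The peaks of Zfp985, in the Mfn2-/- libraries, did not overlap, with scores of 93.01 in replicate 1 and 55.71 in replicate 2. Nor did those of Zfp984, which scored 50.32 in wild-type replicate 1 and 71.04 in Mfn2-/- replicate 2. Among listed peaks, Zfp982 thus met the mark of recurrence by overlap, and Zfp985 and Zfp984 met it only by gene symbol. In Mfn2-/- replicate 2 the Zfp985 peak ended 0.583 kb before the Zfp979 peak began, so these were neighboring peaks with different gene symbols.

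**Figure D2:**
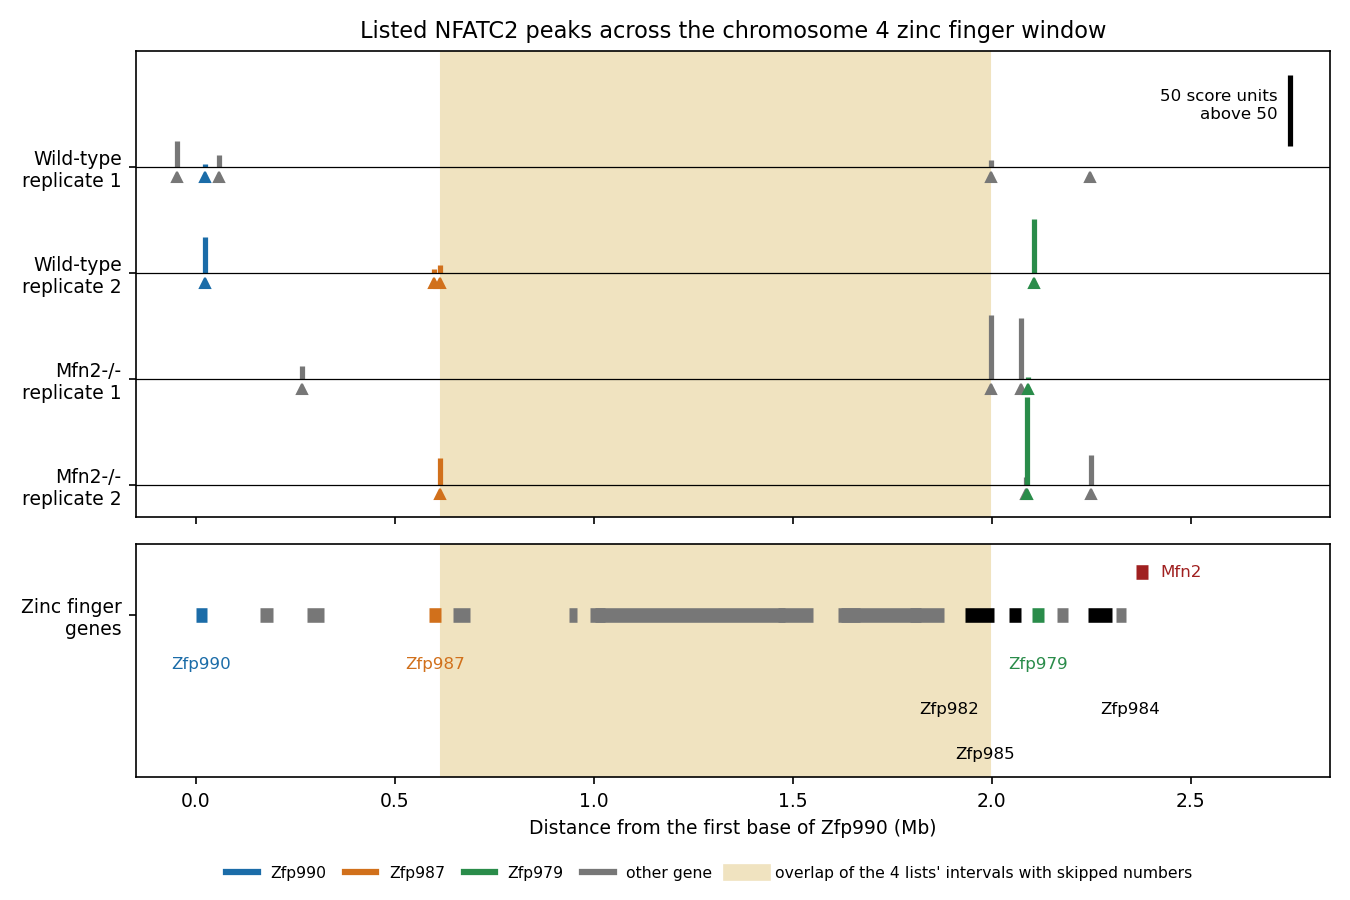
Listed peaks in the chromosome 4 window, by distance from the first base of Zfp990 in Mb, with a row for each library. Triangles mark peaks, and bar heights give the score above 50. RefSeq genes are below (zinc finger genes without a listed peak in gray, Zfp982, Zfp985 and Zfp984 in black, Mfn2 in red). Shading marks the 1.38 Mb, with 0 listed peaks, where the intervals with skipped numbers of all 4 lists overlap, and the skipped peaks themselves may lie outside it.

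The lists could not always show that a peak was absent. MACS numbers peaks in order along each chromosome, and in all 4 lists the numbers rose with position without exception. Numbers missing from the lists used here, 93 in all, were taken as called peaks that are not in them. Listed peaks on both sides bound where they fell, except for 2 numbers before the first listed peak of wild-type replicate 2. A stretch of 1.38 Mb inside the cluster, chr4:146125906-147507151, was the only place within a chromosome where intervals with skipped numbers, each bounded by 2 listed peaks, overlapped in all 4 lists. These intervals are wider than their overlap, so the skipped peaks cannot be placed inside it. In the interval of each list, 1 number was skipped in wild-type replicate 1, 2 in wild-type replicate 2, 3 in Mfn2-/- replicate 1 and 1 in Mfn2-/- replicate 2. The overlap held 8 zinc finger genes, and 0 listed peaks in any library. The skipped interval of wild-type replicate 1 and that of Mfn2-/- replicate 1 also covered Zfp987. Therefore the absence of Zfp987 from these 2 lists does not show that no peak was called there. The intervals of wild-type replicate 2 and Mfn2-/- replicate 2 covered the Zfp982 peaks and the Zfp985 peak of Mfn2-/- replicate 1. Whether peaks overlapping those were called in these 2 libraries cannot be told from the lists. The interval of wild-type replicate 2 reached from Zfp987 to the intron of Zfp979, and so it covered the intergenic Zfp979 region as well. Whether that region had a called peak in wild-type replicate 2 cannot be told from the list, and its listing in Mfn2-/- libraries only rests on wild-type replicate 1, where 0 numbers were skipped between Zfp982 and Zfp984. At Zfp990, 0 numbers were skipped around the region in either Mfn2-/- library, so by the numbering no peak was called there in them.

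Of the 8 peaks, 7 were wider than the median of their list, as were 355 of the 718 other peaks. Widths were 1436 bp in wild-type replicate 1, 479 bp to 1137 bp in wild-type replicate 2, 1053 bp in Mfn2-/- replicate 1, and 962 bp and 2531 bp in Mfn2-/- replicate 2. List medians ran from 562.5 bp to 620.0 bp. The 2531 bp Zfp979 peak ranked 3 of 161 by width in its list, and the intronic Zfp987 peak, ranked 187 of 212, was the exception. All 6 peaks of the other zinc finger genes in the window, and 3 of 3 peaks of genes with other names there, were also wider than their list's median. In the whole window, 16 of 17 peaks were wider than the median of their list. Width was not tested against that of other peaks.

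**Figure D3:**
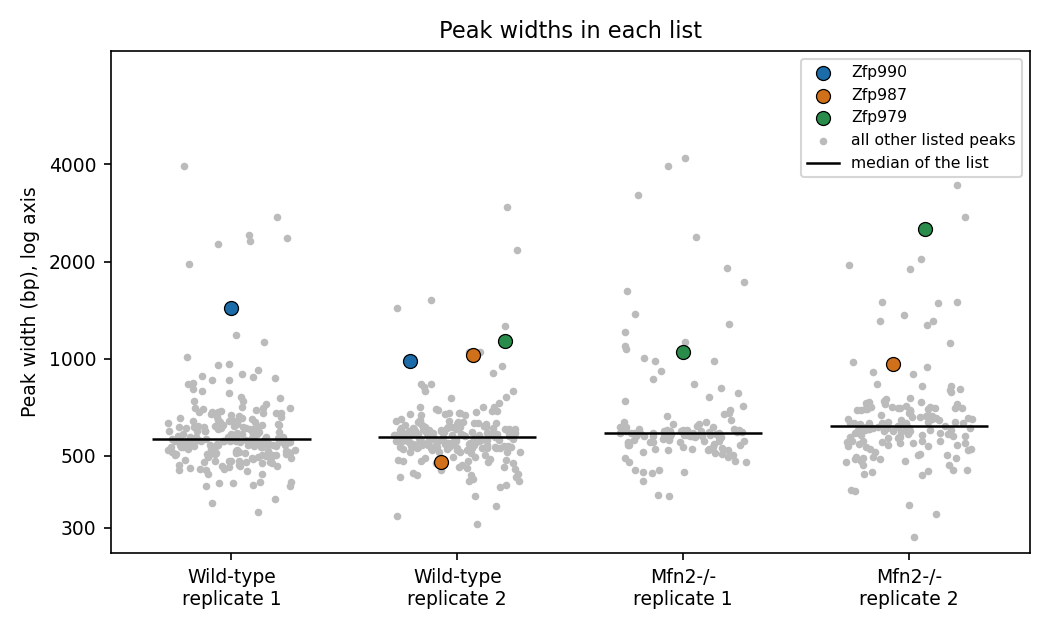
Width of every listed peak in bp on a log axis, by library, with the peaks of Zfp990, Zfp987 and Zfp979 in color and the median of each list as a line. All colored points but 1, the intronic Zfp987 peak of 479 bp, lie above the line.

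Scores at the 3 genes ranged from 51.66 to 112.47 with a median of 62.4, and the 718 other peaks had a median of 54.7. Of the 8 peaks, 5 scored at or above 54.71, the median of all peaks, and 3 fell below it. The 3 below were the Zfp990 peak of wild-type replicate 1, the intronic Zfp987 peak and the Zfp979 peak of Mfn2-/- replicate 1. At Zfp990 and at the intergenic Zfp979 region, 1 of the 2 overlapping peaks was therefore among the weaker peaks of all lists. At the 3' end of Zfp987 both peaks were above 54.71. As percentiles of their own list, the Zfp990 peaks stood at 36.3 in wild-type replicate 1 and 92.9 in wild-type replicate 2. The Zfp987 peaks stood at 33.5 (intron) and 56.1 (3' end) in wild-type replicate 2 and at 85.1 in Mfn2-/- replicate 2. The Zfp979 peaks stood at 94.3 in wild-type replicate 2, 12.6 in Mfn2-/- replicate 1 and 92.5 in Mfn2-/- replicate 2, so the 8 peaks were spread over most of the range. No peak of the 3 genes was among the 10 highest scores of its list, where Hif1a peaks ranked between 1 and 6.

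**Figure D4:**
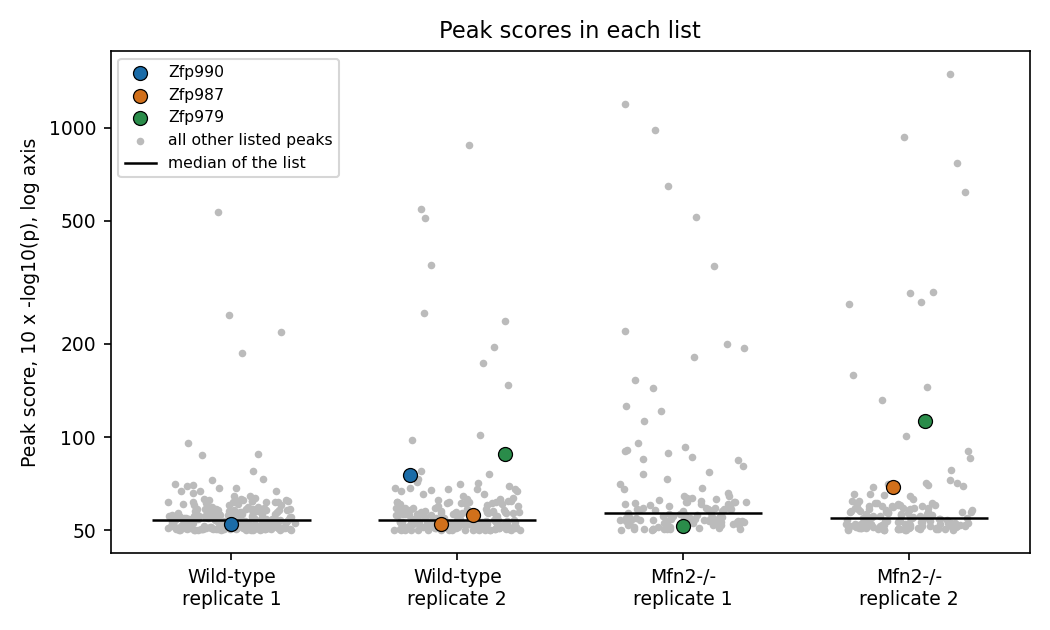
Score of every listed peak on a log axis, by library, with the peaks of Zfp990, Zfp987 and Zfp979 in color and the median of each list as a line. The colored points lie between 51.66 and 112.47, below the highest gray points of each list.

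In 4 measures made at the 3 genes, the difference between genotype means was smaller than the SD of at least 1 genotype. No test is given for them, since a peak has a value only where it was listed, the libraries list different regions, and presence in the lists chose the genes. With 2 libraries against 2, no exact permutation test could give a p-value below 0.33. The wild-type libraries had 1 and 4 peaks, or 2.5 ± 2.12 (SD, n = 2), and the Mfn2-/- libraries 1 and 2, or 1.5 ± 0.707 (SD, n = 2). As a share of all listed peaks, this was 0.442% (95% Wilson interval 0.0782% to 2.46%) in the first wild-type replicate and 1.89% (0.736% to 4.75%) in the other. In the Mfn2-/- libraries the share was 0.787% (0.139% to 4.33%) and 1.24% (0.341% to 4.42%), between the wild-type values. The means were 1.16% ± 1.02 and 1.01% ± 0.322 (SD, n = 2 each). The direction of both measures rested on wild-type replicate 2. Without it, Mfn2-/- libraries had on average 0.5 peaks more, and a share 0.572 percentage points higher. Without Mfn2-/- replicate 1 the share was also higher in Mfn2-/-, by 0.0776 percentage points. The mean score of the peaks, relative to the median of the list, was 0.970 and 1.26 in wild-type and 0.906 and 1.66 in Mfn2-/- libraries. Here the lowest and the highest value both came from Mfn2-/- libraries, and without replicate 2 the mean of that group was lower by 0.207 than that of wild-type, not higher by 0.168. The median width was 1436 bp and 1004 bp in wild-type and 1053 bp and 1746.5 bp in Mfn2-/- libraries. The difference in width of 179.75 bp turned to -36.25 bp without wild-type replicate 2 and to -167 bp without Mfn2-/- replicate 2. It rose to 395.75 bp without wild-type replicate 1, to 526.5 bp without Mfn2-/- replicate 1 and to 651.75 bp with peaks within 1 kb merged.

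The share of listed peaks in the whole chromosome 4 window was 2.21% (95% Wilson interval 0.949% to 5.07%) and 1.89% (0.736% to 4.75%) in wild-type replicates 1 and 2. It was 3.15% (1.23% to 7.82%) and 2.48% (0.970% to 6.21%) in Mfn2-/- replicates 1 and 2. All 4 intervals overlapped, but they cover the counting of peaks within a list and not the spread between libraries. The values of the groups did not overlap, and the Mfn2-/- mean was 0.767 percentage points higher. This difference was 0.435 percentage points without Mfn2-/- replicate 1 and 1.37 with only peaks scoring at or above 54.71. Of the 17 peaks in the window, 8 belong to the 3 genes chosen by recurrence, so this share too is given without a test. The number of peaks in the window was 5 in wild-type replicate 1 and 4 in each of the other libraries, so the higher share went with the shorter Mfn2-/- lists. In the intervals described above, 3 numbers were skipped in all in the wild-type and 4 in the Mfn2-/- libraries, and their part in this difference was not tested.

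Mfn2 itself is on chromosome 4, at chr4:147873586-147904909, and had 0 annotated peaks, as did Nfatc2. Zfp979 was the nearest of the 3 genes, 231 kb away with 5 protein-coding genes between them in RefSeq. Zfp987 was 1.75 Mb and Zfp990 2.34 Mb from it. The intergenic Zfp979 region listed in both Mfn2-/- libraries ended 270.9 kb from Mfn2. DNA close to a targeted allele is inherited with it, so genotype and the DNA around Mfn2 cannot be told apart in this design.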

How the data were processed

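NFATC2 ChIP-seq peak lists of 4 libraries were read as deposited. Each list gives, per peak, the position, gene, class of position and a score, which the authors computed as 10 times −log10 of the MACS p-value, without scaling for depth. The submitters' processing notes name BWA 0.7.5, MACS, deepTools 3.5.0 and the build mm10, which is GRCm38. The MACS version and the control library are not given in the sources used here. Depth is unknown, so intervals cover counting of peaks only. Of 262 peaks classed as intron, exon or UTR with a gene in RefSeq GRCm38.p6, 255 lay in that gene there.

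The 3 genes, gene lists and tests were chosen with earlier results of these data known. Overlapping peaks (1 bp or more) of the 4 lists made up a region, a step tested on simulated data. The window ran 1 Mb past the outermost peaks of the 3 genes. All peaks of the 3 genes are named, and of other genes, those in the window with symbols starting Zfp, Zscan, Zkscan, Zbtb, Znf, Zik or Rex. Smarca5-ps, Gm21978, Vmn2r-ps15, Gm10801, Zfp998 and Zfp825 were named after their values were seen. Genotypes were compared by exact permutation, two-sided, but these p-values are not given, because the choice of genes had used the same peaks and peaks have values only where they were listed. RefSeq upstream sequences matched 13 of the 18 zinc finger genes, with 2 of the 3 members, and were aligned globally (match 1, mismatch -1, gap opening -2, extension -0.5). Alternatives were a score of at least 54.71, merging within 1 kb, other overlap rules and margins, each library left out, and a replicate block. Crossed pairing was added after the data were seen. Python 3.11.15, numpy 2.4.6, pandas 2.3.3, scipy 1.17.1, Biopython 1.88 and matplotlib 3.10.9 were used.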

Additional observations from a re-analysis of the deposited data

How the results depend on the processing

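Of the 3 regions with a peak in 2 libraries, 1 remained, the 3' end of Zfp987, when the shared bases had to make up 50% or more of each peak, and the same 1 when only peaks scoring at or above 54.71 were used. All 3 remained when peaks within 1 kb counted as shared. Leaving out a library left from 1 (without wild-type replicate 2 only Zfp979, without Mfn2-/- replicate 2 only Zfp990) to 2. Differences, Mfn2-/- minus wild-type, over the 4 fits that each left out a library ran from -2.5 to 0.5 in peak number, from -0.872 to 0.572 percentage points in share of peaks, from -0.207 to 0.543 in relative score, from -167 bp to 526.5 bp in median width and from 0.435 to 1.10 percentage points in window share. Only the window share kept its direction in all 4. Under the other alternatives run, the 5 differences kept their direction. Merging within 1 kb, which joined the Zfp985 and Zfp979 peaks of Mfn2-/- replicate 2, raised the difference in width from 179.75 bp to 651.75 bp and lowered that in window share from 0.767 to 0.531 percentage points. The filter at 54.71 raised the difference in window share to 1.37 percentage points. Adding other peaks between those of a gene, and a margin of 0.5 Mb for the window, changed no value. Relative score and width have no value among peaks at or above 54.71, because 1 library of each genotype then has no peak at the 3 genes. The replicate block gave the same mean differences by construction, for example -1 in peak number, with differences of 0 and -2 within replicate numbers. Across the 5 regions listed in all 4 libraries, deviations of same-numbered libraries in log2 score had a correlation of -0.63, and crossed pairs, chosen after the data were seen, gave differences of -3 and 1. The replicates share only a number. Unknown depth limits the comparison of scores and peak numbers.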

Other observations

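Outside the chromosome 4 window, 9 peaks were annotated to 9 zinc finger genes. Of these genes 0 had a peak in 2 or more lists, beside 10.2% of all genes in the lists, and with 9 genes nothing is read from the difference. Their widths ran from 487 bp to 1440 bp with a median of 600 bp, and their scores from 50.88 to 70.99. Zfp998 on chromosome 13 had the widest of them, 1440 bp, and Zfp825 on the same chromosome the highest score, 70.99, both in wild-type replicate 2, and these genes were named after their values were seen.

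Within the window, 3 peaks were annotated to genes with other names, and each was listed in 1 library. The Smarca5-ps peak of wild-type replicate 1 scored 68.45 and ranked 15 of 226, and the Gm21978 peak of the same list, 2370 bp wide, scored 58.32. They lay on either side of the Zfp990 peak. The Vmn2r-ps15 peak of Mfn2-/- replicate 1 scored 59.22.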
